A study of Mus musculus with 4 samples.

Results

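The cells described here are the 444 blood CD4+ T cells that the authors' clustering placed in cluster 5, out of 1517 cells annotated as CD4+ T cells and 5794 cells in all. They were taken by both labels of the deposited cell table, the annotation CD4+ T cell and cluster 5. The authors drew both labels from the expression of these cells, and no further expression value was used to choose them. The other CD4+ T cells fall into cluster 3 with 784 cells, cluster 7 with 152 cells and cluster 8 with 137 cells. All cells come from female wild-type C57BL/6 mice that were anaesthetized. Non-thermal plasma (NTP, an ionized argon gas) was directed at the ear of Maus3_2 and Maus6, the 2 treated mice, for 10 min. Maus2_2 and Maus4_2, the 2 untreated mice, received anaesthesia alone. Blood was drawn from the vena cava 120 min after irradiation or after the onset of anaesthesia, and mononuclear cells were isolated on a Ficoll gradient. Each mouse gave 1 library, so mouse and library cannot be told apart.

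CD4+ T cells recognize peptides on MHC class II through the T cell receptor (TCR), whose alpha and beta chains are held by the CD3 proteins and the zeta chain. Naive CD4+ T cells, which have not met their antigen, circulate in a resting state held by transcription factors such as Lef1, Tcf7, Satb1, Bach2 and Foxp1. Regulatory T cells, marked by Foxp3, restrain other lymphocytes. The libraries were 3' droplet libraries in which captured RNA molecules are tagged with unique molecular identifiers (UMIs), and a UMI count is a count of molecules.

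Cluster 5 held 111 cells of Maus3_2, 97 of Maus6, 118 of Maus2_2 and 118 of Maus4_2, with summed counts of 648967, 482579, 669050 and 478428 UMIs in that order. Its median UMIs per cell were 5764, 4875, 5716.5 and 4011, above the 4912, 4114.5, 4747 and 3234 of cluster 3 in every mouse. After every cell was thinned to 2000 UMIs, which left out 3 cells of cluster 5 and 10 of cluster 3, the median number of genes detected was 999 in cluster 5, 864 in cluster 3, 883 in cluster 7 and 978 in cluster 8. The authors' filter removed cells above 2500 genes, and 24 of the 444 cells (5.41%) had at least 2400 genes, against 1 of the 784 cells of cluster 3. Cells of the same kind may therefore have been lost above that limit, which was not tested. Of the 5794 cells, 8 had a barcode that also occurs in another library, and 0 of them lay in cluster 5.

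The authors set the labels from known marker genes in these same cells, so the marker values below describe the label and do not test it. The markers were present in all 4 mice. Cd3d, a CD3 chain, had a UMI in 92.3% of the cells and Trac, the constant part of the TCR alpha chain, in 79.7%, against 0.703% and 0.639% of the annotated B cells, which should lack both. All 444 cells had a UMI of at least 1 of Cd3d, Cd3e, Cd3g, Trac, Trbc1 and Trbc2, while 3.93% of B cells did. Cd4 itself had a UMI in 228 cells (51.4%), with 156, 157, 139 and 132 counts per 1000000 UMIs (CPM) in the sums of Maus3_2, Maus6, Maus2_2 and Maus4_2. This is a low-count gene, and cells without a UMI of it are not shown to lack it. In cluster 3 it had a UMI in 42.0% of the cells and in B cells in 0.160%. Median UMIs were 4945.5 per cell in cluster 5, 4123.5 in cluster 3 and 3364 in B cells.

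Genes that define regulatory and CD8+ T cells were low, while transcripts of activated or memory T cells were partly present. Foxp3, the factor that defines regulatory T cells, averaged 3.20 CPM in cluster 5 and 142 CPM in cluster 8, and Il2ra, the high-affinity interleukin-2 receptor chain, 3.09 and 151 CPM. A UMI of 2 or more of Foxp3, Ikzf2, Il2ra and Ctla4 was present in 11 cells of cluster 5 (2.48%), 5 of cluster 3 (0.638%) and 96 of cluster 8 (70.1%). Among memory markers, S100a4 averaged 1.28 CPM in cluster 5, 0.695 CPM in cluster 3 and 210 CPM in cluster 8, and Cd44 30.4, 19.7 and 74.4 CPM. Crip1, also listed as one, averaged 386 CPM in cluster 5 with a UMI in 71.2% of its cells, beside 68.4% of B cells. Cd8a was at 0 and Cd8b1 at 14.5 CPM, against 205 CPM of Cd8b1 in cluster 7. A UMI of Cd79a or Ms4a1, which mark B cells, was found in 25 cells (5.63%) of cluster 5, in 2.30% of cluster 3 and in 99.5% of B cells, and their part in the results below was not tested.

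Naive T cell genes were the highest among the markers. Lef1, a TCF family factor needed for the naive program, averaged 1868 CPM in cluster 5 against 1245, 1430 and 754 CPM in clusters 3, 7 and 8. Satb1, which organizes chromatin in T cells, averaged 1808 CPM against 999, 1121 and 1086 CPM, and Tcf7, the partner of Lef1, 779 CPM against 620, 657 and 457 CPM. In contrast, Dapl1 and Igfbp4, transcripts of resting naive T cells, averaged 248 and 252 CPM in cluster 5, below the 418 and 388 CPM of cluster 3. Ccr7, the receptor that guides naive cells into lymph nodes, averaged 303 CPM in cluster 5 against 320 CPM in cluster 3. Naive T cell transcripts were thus present in both clusters 5 and 3, at different levels relative to each other.

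**Figure D1:**
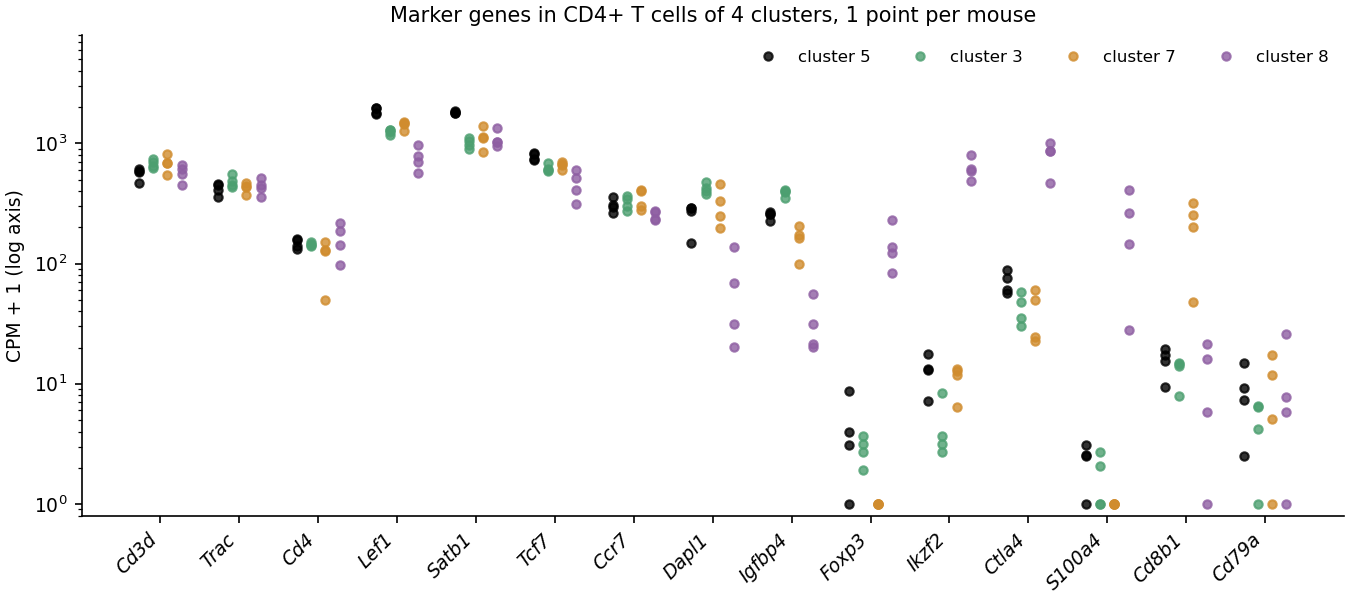
CPM + 1 (log axis) of marker genes in the CD4+ T cells of clusters 5, 3, 7 and 8, from UMI counts summed per mouse, with 1 point for each of the 4 mice. Lef1 and Satb1 stand highest in cluster 5, at means of 1868 and 1808 CPM, and Foxp3 is at a mean of 3.20 CPM there against 142 CPM in cluster 8.

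For the comparison with the other CD4+ T cells, the counts of cluster 5 and those of clusters 3, 7 and 8 together were summed per mouse, and the log2 ratio of CPM + 10 was taken within each mouse. Clusters were drawn from these same genes, so the ratios are a description with no test. The pseudocount of 10 CPM draws the ratios of low genes toward 0. Of 3121 genes with at least 50 CPM in either set of cells, 400 (12.8%) were at least 1.5-fold higher on average and higher in all 4 mice, and 13 (0.417%) were at least 1.5-fold lower and lower in all 4. The median log2 ratio was 0.29, so the reference point decides much of this split. Most of the pooled cells are of cluster 3, and against cluster 8 alone 231 genes were higher and 185 lower (6.78% and 5.43% of 3408). With each mouse's ratios centred on their median, 20 genes were higher and 200 lower, and the share of higher genes among the calls went from 96.9% to 9.09%. The changes below are given on the uncentred scale and are to be read against the 0.29.

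The 12 genes with the largest positive ratios are led by transcripts of long genes. Gm4258, a predicted noncoding gene at chr1:137898595-138000384 (GRCm38, plus strand), had 55.5, 80.8, 55.3 and 66.9 CPM in cluster 5 and 20.5, 24.6, 24.0 and 29.8 CPM in the other CD4+ T cells of Maus3_2, Maus6, Maus2_2 and Maus4_2. The ranges did not overlap, and the log2 ratio was 1.10 ± 0.21 (SD, n = 4 mice). Gm4258 averaged 24.7 CPM in the other cells and passed the floor of 50 CPM through cluster 5, so the floor fixed its sign. In cells thinned to 2000 UMIs the ratio of Gm4258 was 0.645. Ext1, an enzyme that builds heparan sulfate chains (chr15:53064038-53346159, minus strand), had 256, 232, 256 and 263 CPM against 109, 113, 143 and 112 CPM, a log2 ratio of 1.02 ± 0.18. Pde3b, a phosphodiesterase that breaks down cyclic AMP (chr7:114415281-114539251, plus strand), had 840, 1005, 825 and 859 CPM against 367, 499, 461 and 475 CPM, a log2 ratio of 0.96 ± 0.16. The noncoding 4933406I18Rik (chr7:114315479-114415161, minus strand) is its neighbour in head-to-head orientation and had a ratio of 1.06 ± 0.29. Themis, an adaptor that tunes TCR signals during thymic selection (chr10:28668360-28883818, plus strand), had 718, 787, 661 and 706 CPM against 319, 409, 361 and 441 CPM, a log2 ratio of 0.90 ± 0.20.

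The other genes of this set were Atrnl1, Atg4a, Tmlhe, Atp10a, Gm2245, Scfd2 and Tet3, with ratios between 0.90 (Tet3) and 1.04 (Atrnl1). Of these, Atrnl1, Atg4a, Atp10a and Gm2245 averaged under 50 CPM in the other CD4+ T cells, so the floor fixed their signs as well. Tet3 oxidizes 5-methylcytosine, Atg4a is a protease of autophagy and Atp10a a lipid flippase. Atrnl1 had 66.3, 68.4, 29.9 and 66.9 CPM against 19.8, 21.4, 17.1 and 30.8 CPM, so that Maus2_2 had the smallest gap and the ranges overlapped between mice but in no mouse.

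Of the 12 genes with the largest negative ratios, 3 were higher in cluster 5 than in cluster 3. Ikzf2, a regulatory T cell factor, had a log2 ratio of -2.13 ± 0.65 and Ctla4, an inhibitory receptor, of -0.93 ± 0.71, but against cluster 3 alone both were positive, at 0.69 and 0.63. Ctla4 had 55.5, 87.0, 59.8 and 75.2 CPM in cluster 5 against an average of 41.7 CPM in cluster 3 and 801 CPM in cluster 8. Gm11290, a predicted gene, had a ratio of -1.93 and averaged 85.05 CPM in cluster 5, 46.3 CPM in cluster 3 and 2027 CPM in cluster 7. Ikzf2, at 11.8 CPM in cluster 5, passed the floor of 50 CPM through the other cells, so the floor fixed the sign of its ratio. The same holds for Lgals1, S100a11, Izumo1r, H2-Q6 and Slc50a1, which averaged under 50 CPM in cluster 5.

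The other 9 genes were lower against cluster 3 as well. S100a11, a calcium-binding protein, had 50.8, 49.7, 50.8 and 35.5 CPM in cluster 5 against 111, 94.3, 112 and 107 CPM, with a log2 ratio of -1.04 ± 0.23, and of -0.73 against cluster 3 alone. Lgals1, the lectin galectin-1, had a ratio of -1.06 ± 0.56 and of -0.46 against cluster 3. AW112010, an interferon-inducible transcript, had ratios of -0.88 and -0.67, and the nonclassical MHC gene H2-Q6 of -0.66 and -0.33. Crip1, a LIM domain protein of memory T cells, had 357, 329, 392 and 464 CPM against 623, 507, 677 and 584 CPM, a log2 ratio of -0.62 ± 0.21 with no overlap. Izumo1r, S100a10, Slc50a1 and Klk8 complete the set at -0.81, -0.65, -0.65 and -0.59.

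The gene lists were described by their counts beside those of all genes. Of the 19 genes of naive T cell identity that passed the level floor, 4 were higher (beside 12.8% of all genes) and 0 lower, with a median log2 ratio of 0.34 beside the 0.29 of all genes. After centring, 0 of the 19 were higher and 1 was lower. The 4 before centring were Satb1 with 1777, 1819, 1783 and 1852 CPM against 934, 964, 1070 and 1092 CPM (0.83 ± 0.10), Bach2, a repressor of effector genes (0.82 ± 0.18), Foxp1, which holds T cells quiescent (0.72 ± 0.10), and Lef1 (0.64 ± 0.08). In each mouse these genes were higher in cluster 5 than in the other CD4+ T cells, and less the median shift Satb1 and Lef1 stood at 0.57 and 0.38. Tcf7 was at 0.38 ± 0.03, and 0.12 less the shift. Among activated or memory genes, 10 of 30 passed the floor, some of them through the clusters where they are high, and Lgals1, S100a11, S100a10 and Crip1 were lower. Against cluster 3 others of that list were higher in cluster 5, with Itgb1 at 28.8 against 16.4 CPM and Ahnak at 13.6 against 5.43 CPM. Of the 20 regulatory T cell genes 3 passed the floor (Ikzf2, Ctla4 and Izumo1r), and no count is read from them.

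Genes of TCR signalling were called higher at shares not far from the 12.8% of all genes. Among the 7 genes of the receptor complex 1 was higher, Cd247, the zeta chain that carries most of the signalling motifs, with 1034, 997, 1009 and 1097 CPM against 547, 572, 592 and 661 CPM (0.79 ± 0.08). The receptor chains Trbc2 and Cd3d were not, with Trbc2 at -0.15 ± 0.12 and Cd3d at -0.25 ± 0.20, and the list median was -0.11. Of 18 genes of proximal signalling, 4 were higher, among them Themis, the kinase Prkcq (0.73 ± 0.15) and the adaptor Grap2 (0.66 ± 0.13). Their list median of 0.32 was close to that of all genes, and centring left 1 of the 18 higher and 0 of the 7.

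FoxO and PI3K-Akt genes, which link growth factor signals to quiescence, were above 0 in all 21 cases, beside 74.5% of all genes, with 5 higher (beside 12.8%) and a median of 0.43. Among the 5 were Foxp1, the catalytic subunit gene Pik3ca (0.72 ± 0.24), the kinase Gsk3b (0.68 ± 0.31) and Rictor, a scaffold of the mTOR complex 2 (0.65 ± 0.09). After centring the median was 0.17 and 0 of these genes passed 1.5-fold. Of 18 cytokine receptor and STAT genes, 0 were higher and the median was 0.39, with Il7r, the receptor for the survival cytokine interleukin-7, at 0.19 ± 0.08 and the kinase Jak1 at 0.51 ± 0.05. Of 6 BCL2 family genes 0 were higher and 3 were above 0, beside 74.5% of all genes. Their median was 0.07, and after centring it was -0.19 with 1 gene lower. Among them Bcl2, which protects resting lymphocytes from apoptosis, had 886, 765, 955 and 782 CPM against 534, 521, 633 and 590 CPM (0.56 ± 0.13). The lists of homing receptors, interferon response, glucocorticoid response, NF-kB and splicing had medians of 0.06, 0.14, 0.19, 0.22 and 0.14, which turned to -0.20, -0.11, -0.07, -0.04 and -0.12 after centring, so no direction is given for them.

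Ribosomal protein and translation genes lay on the other side. All 82 cytosolic ribosomal protein genes that passed the floor had a ratio below 0, with a median of -0.37, though 0 reached 1.5-fold. Less the median shift the list stood at -0.62, and 64 of the 82 were at least 1.5-fold lower. Together these genes made up 28.8% of the UMIs in cluster 5, 38.9% in cluster 3, 36.2% in cluster 7 and 29.0% in cluster 8, as means over the 4 mice. Rps29 had 11917, 13631, 12361 and 12784 CPM in cluster 5 against 14781, 16715, 13676 and 15872 CPM in the others, with a log2 ratio of -0.27 ± 0.08. Of 26 translation factors 0 were higher and 1, Eif5a (-0.59 ± 0.16), was lower. Eef1a1, which delivers aminoacyl-tRNA to the ribosome, stood at -0.34 ± 0.04 and Tpt1 at -0.29 ± 0.05. The 13 mitochondrially encoded genes had a median of -0.17, and Tmsb4x, an actin-binding peptide, stood at -0.36 ± 0.06. Malat1, a nuclear noncoding RNA, had 29308, 29421, 26064 and 28884 CPM in cluster 5 and 23166, 21665, 18460 and 23696 CPM in cluster 3. Its median share of a cell's UMIs was 2.81%, 2.23%, 2.27% and 2.78% in clusters 5, 3, 7 and 8. In the same order, translation factors made up 2.04%, 2.61%, 2.43% and 2.02% of the UMIs, and mitochondrially encoded genes 4.46%, 5.24%, 5.18% and 4.64%. Cluster 8 thus lay close to cluster 5 in these measures.

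The ratio followed the length of the gene, from first to last exon, on GRCm38. Across 3105 genes Spearman's rho between the log2 ratio and this span was 0.726, and it was 0.648, 0.638, 0.583 and 0.562 in Maus3_2, Maus6, Maus2_2 and Maus4_2 alone. These points share the same cells and libraries, and genes are not independent replicates. With exonic length rho was 0.604, and with the mean level it was -0.278. The 333 genes under 5 kb had a median log2 ratio of -0.25 and the 217 genes of 200 kb or more one of 0.58. In between, the medians were -0.03 (5 to 20 kb), 0.28 (20 to 50 kb), 0.43 (50 to 100 kb) and 0.49 (100 to 200 kb). The share of genes called higher went from 0.300% in the shortest class to 46.5% in the longest. Against cluster 8 alone the medians ran from -0.11 to 0.23.

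**Figure D2:**
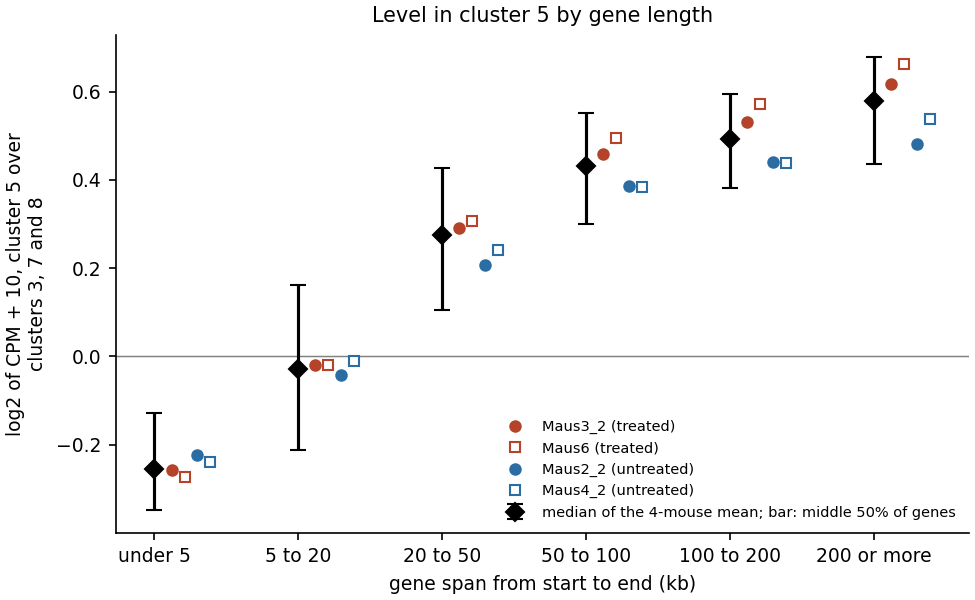
Log2 ratio of cluster 5 to the CD4+ T cells of clusters 3, 7 and 8 in 6 classes of gene span (kb). Black diamonds are medians over genes of the mean of 4 mice, bars cover the middle 50% of genes, and the other points are the medians in each mouse. Every mouse climbs from the genes under 5 kb (median -0.25 over the mean of the mice) to those of 200 kb or more (0.58).

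The lists were also described relative to gene length. Measured from the median of each gene's own length class, the naive identity list stood at 0.07, FoxO and PI3K-Akt at 0.10, KLF and quiescence factors at 0.15, the TCR complex at 0.10 and proximal TCR signalling at -0.07. Ribosomal proteins stood at -0.13 and translation factors at -0.21.

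Cells were then described by the percentage of their UMIs that came from the 1880 genes of 100 kb or more. The medians of cluster 5 were 14.2%, 14.3%, 14.4% and 14.7% in Maus3_2, Maus6, Maus2_2 and Maus4_2, while those of cluster 3 were 9.10%, 9.15%, 9.93% and 10.3%. Cluster 7 lay between them, at 9.90% to 11.01%, and cluster 8 closer to cluster 5, at 12.7% to 13.4%. No mouse broke this order. Single cells of clusters 5 and 3 overlapped in part, since cluster 5 began at 10.998% and cluster 3 ended at 13.8%, with 168 cells of cluster 5 (37.8%) and 180 of cluster 3 (22.96%) inside that range. The percentage of ribosomal protein UMIs had medians of 28.4%, 29.2%, 29.7% and 29.1% in cluster 5 and of 38.4%, 39.3%, 38.5% and 37.3% in cluster 3. Median mitochondrial percentages, computed from the same counts, were 4.40% to 4.56% in cluster 5 and 5.08% to 5.27% in cluster 3. In cluster 8 the ribosomal medians were 26.9% to 31.1% and the mitochondrial ones 4.43% to 4.75%.

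**Figure D3:**
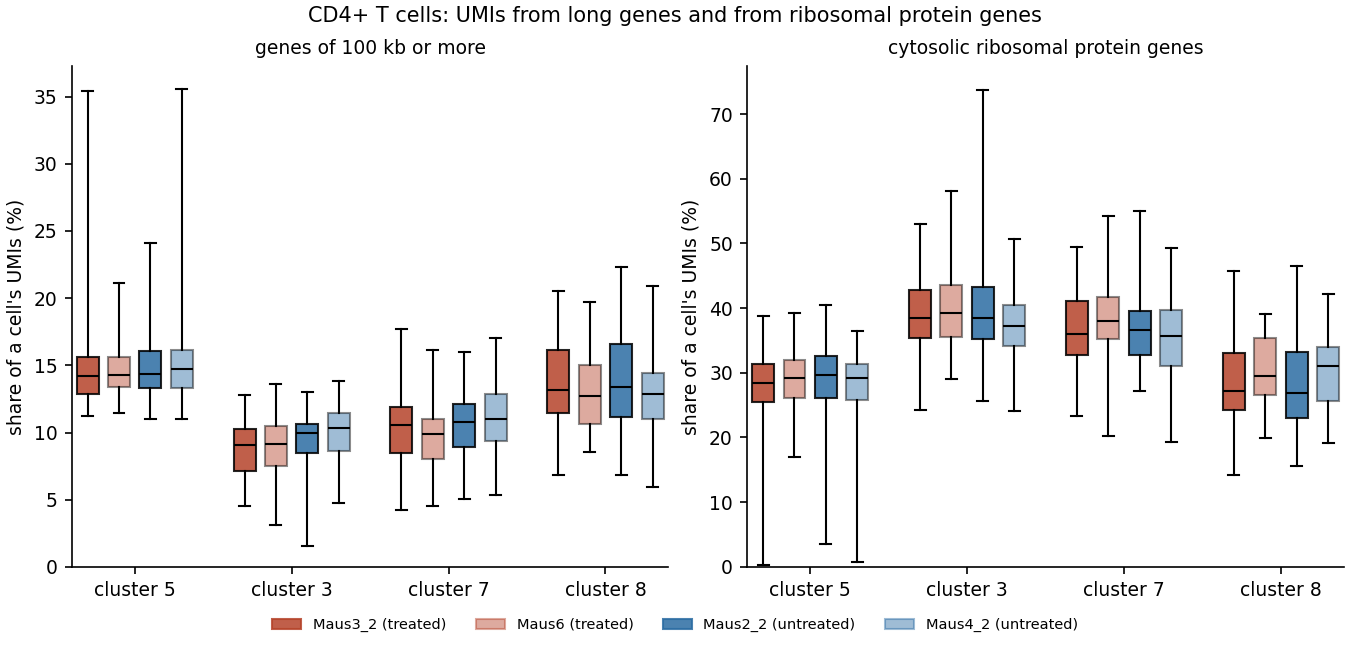
Percentage of a cell's UMIs from genes of 100 kb or more (left) and from cytosolic ribosomal protein genes (right) in CD4+ T cells by cluster and mouse, with the line at the median, the box over the middle 50% of cells and whiskers from lowest to highest cell. Cluster 5 has medians of 14.2% to 14.7% on the left and 28.4% to 29.7% on the right, against 9.10% to 10.3% and 37.3% to 39.3% in cluster 3.

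Within cluster 5 the same pair of measures moved in opposite directions from cell to cell. Spearman's rho between the long-gene and ribosomal percentages was -0.707 over the 111 cells of Maus3_2, -0.554 over 97 in Maus6, -0.798 over 118 in Maus2_2 and -0.740 over 118 in Maus4_2. Both are parts of 1 total, which by itself pulls them apart. Against the UMIs per cell, the long-gene percentage had rho values of -0.07, 0.11, -0.13 and 0.28. A like set of ratios was found between B cell clusters. The log2 ratios of cluster 5 over cluster 3 and those of B cell cluster 2 over B cell cluster 1 correlated across 2648 genes with r = 0.903 and rho = 0.883, from the same 4 libraries.

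Among 2317 genes with at least 0.1 UMI per thinned cell, the variance-to-mean ratio within a mouse, at 1 for pure counting error, had a median of 0.950 for its lowest value over the mice. Malat1 had a lowest value of 3.61, and Gm42418, a predicted gene that overlaps ribosomal RNA sequence, of 4.46. Trbc1, the first of 2 beta chain constant genes of which a T cell uses 1, followed at 2.43 with a UMI in 61.7% of the cells. Actb (2.19) and Tmsb4x (2.11), both of the actin cytoskeleton, Bcl2 (2.01) and Ifi27l2a (2.001), an interferon-inducible gene, came next. The ratio was above 1.2 in every mouse for 128 of the 2317. At low means, and with the lowest value over the mice taken, this measure can miss variation. Genes with a ratio near 1 are therefore not shown to be uniform between cells.

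The question of the study was whether NTP on the skin changes blood cells, and for cluster 5 it was asked first of cell number. The cluster made up 28.1% (23.9% to 32.7%) and 24.7% (20.7% to 29.2%) of the CD4+ T cells in the treated mice Maus3_2 and Maus6, and 39.2% (33.9% to 44.8%) and 27.5% (23.5% to 31.9%) in the untreated mice Maus2_2 and Maus4_2. Intervals are Wilson 95% intervals and cover counting error only. Maus2_2 stood apart, and the treated Maus3_2 lay above the untreated Maus4_2. The treated mean was lower by 6.93 percentage points (26.4% ± 2.37 against 33.4% ± 8.27, SD, n = 2), with p = 0.667 in an exact two-sided permutation test, which cannot go below 0.333 with 2 mice per group. Without Maus2_2 the difference was -1.08 points and without Maus4_2 -12.8 points. Of all cells, cluster 5 was 7.28%, 5.69%, 11.9% and 7.51%, a difference of -3.21 points (exact permutation p = 0.333), and of -1.02 points without Maus2_2 and -5.40 points without Maus4_2.

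**Figure D4:**
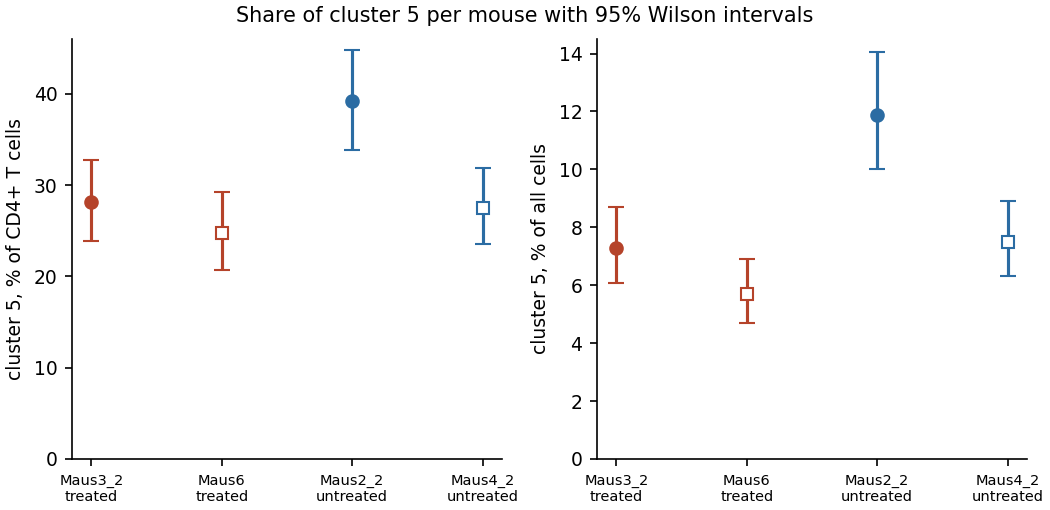
Cluster 5 as a percentage of the CD4+ T cells (left) and of all cells (right) of each mouse, with Wilson 95% intervals for counting error. The untreated Maus2_2 stands highest at 39.2% and 11.9%, and the other 3 mice lie between 24.7% and 28.1% on the left and 5.69% and 7.51% on the right.

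For gene expression, counts summed per mouse were tested with edgeR's quasi-likelihood test over 6276 genes. Here CPM are TMM-scaled, and 0 genes passed a Benjamini-Hochberg adjusted p of 0.05 (lowest adjusted p 0.724). At an unadjusted p under 0.05 there were 121 genes higher (1.93%) and 143 lower (2.28%) in treated mice. Both treated mice lay above both untreated mice in 1030 genes (16.4%) and below in 992 (15.8%). DESeq2 and limma-voom also called 0 genes, with 23 and 267 at an unadjusted p under 0.05. The biological coefficient of variation was 0.0962 between mice of a group. The lists below were read against these shares, and no p within them passed the adjustment.

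Of 8 genes described by their low p-values, 1 was high in a single library. Gm10076, a predicted gene, had 91.9 and 293 CPM in the treated Maus3_2 and Maus6 and 105 and 57.9 CPM in the untreated mice. Its log2 difference was 1.13 ± 0.30 (SE; edgeR adjusted p = 0.803), but Maus3_2 lay between the untreated mice, so it did not separate the groups.

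In the other 7 of these genes the treated and untreated values did not overlap. They were picked by low p-values of this same comparison, so the separation is no further support. Of all 6276 genes, both treated mice lay above both untreated mice in 16.4% and below in 15.8%. Dhx8, a helicase of the spliceosome, had 66.5 and 69.0 CPM against 39.4 and 25.7 CPM, and Frg1, a nuclear RNA-binding protein, 215 and 244 CPM against 156 and 146 CPM. Lower in the treated mice were Lrba, a vesicle trafficking protein that protects Ctla4 from breakdown, with 211 and 222 CPM against 324 and 313 CPM (-0.56 ± 0.16), and the noncoding Airn with 150 and 147 CPM against 225 and 242 CPM (-0.65 ± 0.18). Larp1b, an RNA-binding protein, had 17.4 and 23.7 CPM against 64.6 and 47.2 CPM, Gm4876 19.0 and 8.62 CPM against 42.5 and 42.9 CPM, and Gm42418 16046 and 14037 CPM against 20301 and 17172 CPM. The edgeR adjusted p-values of these 7 genes ran from 0.759 to 0.998. Gm42418 was lower in both treated mice also in clusters 3, 7 and 8, in B cells and in CD8+ T cells. In B cells it had 15647 and 13204 CPM, without TMM scaling, against 19959 and 18275 CPM.

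**Figure D5:**
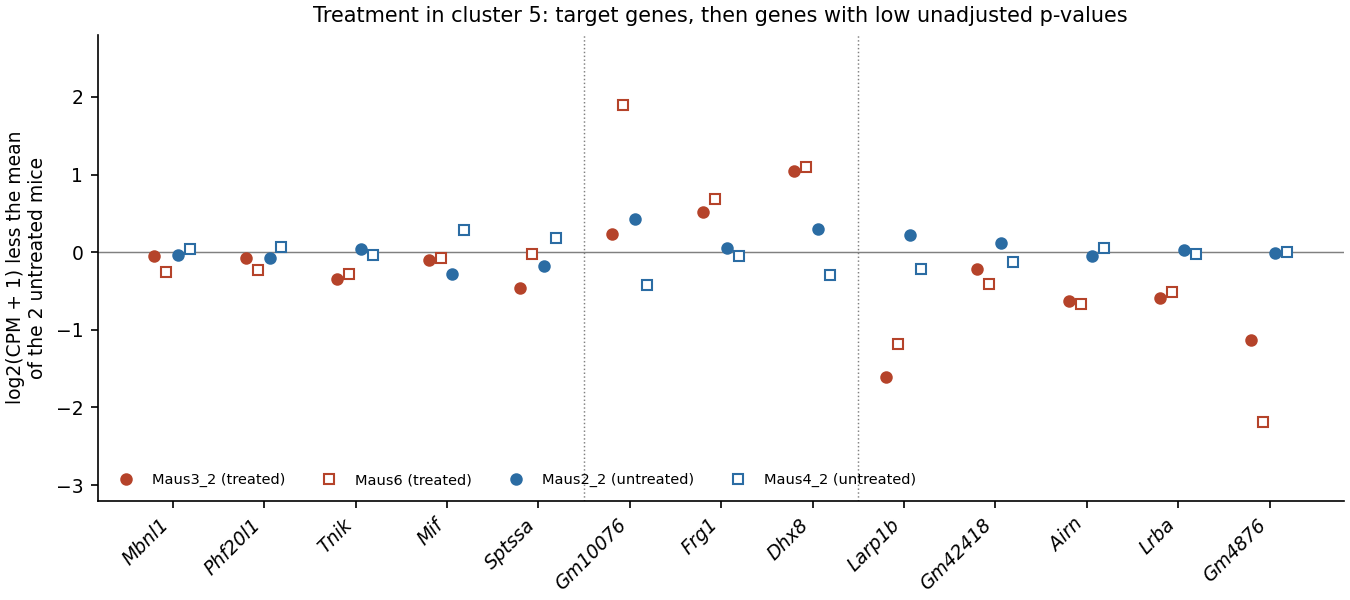
Log2(CPM + 1) in cluster 5 of each mouse, less the mean of the 2 untreated mice, for the 5 target genes shown for CD4+ T cells and 8 genes with low unadjusted p-values, 3 higher and 5 lower. For Gm10076 the treated mouse Maus6 alone is high, and Tnik is low in both treated mice.

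The target genes of 2 miRNAs were of interest because the study followed miR-223-3p, a miRNA of myeloid cells, and miR-451a, a miRNA of red blood cells, after NTP. A miRNA lowers the transcripts that pair with its seed, bases 2 to 8. The mature sequences, from RefSeq on GRCm38.p6, are shown with the seed in capitals because the sites below are its reverse complement.
mmu-miR-223-3p: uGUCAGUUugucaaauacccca
mmu-miR-451a: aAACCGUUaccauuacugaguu
They lie at chrX:96242884-96242905 and chr11:78073186-78073207, both on the plus strand. The letters AACTGAC and AACGGTT were searched on the transcript strand of the longest annotated 3' UTR of each target. They were found in 7 of 12 targets of miR-223-3p and 2 of 3 of miR-451a. Rgs2, Camk1d, Trappc6b and Setd5 held a match that is not printed, and the others are below with the match in capitals.
Mbnl1: catggtgagggagggAACTGACa
Phf20l1: gtattttaatcagaaAACTGACa
Celf1: tatagtttgtgcaaaAACTGACt
Rasa1: aggaactatgaaatcAACTGACa
Sptssa: ttgtattttttttaaAACGGTTt
These are at chr3:60626906-60626928 (plus), chr15:66642469-66642491 (plus, the first of 3 sites), chr2:91017515-91017537 (plus), chr13:85215720-85215742 (minus) and chr12:54645461-54645483 (minus). Among tested genes with an annotated 3' UTR, 640 of 6025 (10.6%) hold the first motif and 2.01% the second, and 13.04% and 1.33% of those whose 3' UTR lies within the targets' range of lengths. Tnik, Macf1, Prkcb, Scd1, Ap2b1 and Mif held no match in this window. The study took the targets from miRTarBase, a collection of miRNA targets, so their share with a match is no independent evidence.

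In cluster 5 the targets of miR-223-3p had small differences toward lower values in treated mice. Tnik, a kinase of the Wnt and JNK pathways, had 355 and 371 CPM in Maus3_2 and Maus6 against 463 and 437 CPM in the untreated mice, a log2 difference of -0.31 ± 0.15 (edgeR adjusted p = 0.998). Mbnl1, a splicing regulator, had 1255 and 1084 CPM against 1263 and 1337 CPM (-0.15 ± 0.12), so that Maus3_2 lay next to Maus2_2. Phf20l1, a reader of methylated lysine, had 407 and 364 CPM against 408 and 450 CPM (-0.15 ± 0.15). Neither difference passed the test. The targets of miR-451a, Sptssa of sphingolipid synthesis and the cytokine Mif, overlapped between the groups, with 49.1 and 66.8 against 59.8 and 77.2 CPM, and 168 and 170 against 148 and 219 CPM.

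Of the 12 targets of miR-223-3p, 11 passed the count filter, and 0 of the 11 had a positive log2 difference, beside 3129 of the 6276 genes tested. The median was -0.15 and the range -0.36 to -0.02. At an unadjusted p under 0.05, 2 were lower (Tnik and Prkcb, with 174 and 207 against 228 and 259 CPM), beside 2.28% of all genes. Both treated mice lay below both untreated in 4 of the 11 and above in 0, beside 15.8% and 16.4% of all genes. The study chose these targets on these same cells, so the count is no independent evidence of a direction. In the other CD4+ T cells the median of the 11 was -0.16. The genes are also long, with a median span of 131 kb, and longer genes stood slightly lower in treated mice, with medians of 0.04 under 5 kb and -0.05 at 200 kb or more (rho -0.101 over 6222 genes). The part of gene length in the list's median was not tested. In the ratio of cluster 5 to the other CD4+ T cells, 5 of the 10 targets that passed the floor (Tnik at 0.74, Macf1 at 0.72, Rasa1 at 0.69, Phf20l1 at 0.64 and Celf1 at 0.60) exceeded 1.5-fold beside 12.8% of all genes, with a list median of 0.56. Camk1d (-0.18 ± 0.08) and Rgs2 (-0.65 ± 0.56) were below 0. After centring, 0 of the 10 were higher and 1 was lower, and the list stood 0.05 above its genes' length classes.

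Other gene lists gave few differences between treated and untreated mice, and 0 of their members passed the adjusted threshold. Of 20 naive identity genes tested, 3 were higher and 1 lower at an unadjusted p under 0.05, beside 1.93% and 2.28% of all genes. The list median was -0.00. Klf2, which keeps T cells quiescent and drives their exit from lymph nodes, had 919 and 806 CPM in treated against 762 and 654 CPM in untreated mice (0.28 ± 0.13), and Klf3 333 and 321 against 274 and 240 CPM (0.34 ± 0.16). Tdrp had 61.8 and 88.4 against 44.1 and 49.3 CPM, while Dapl1 was at 150.5 CPM in Maus3_2 and between 285 and 302 CPM in the other 3 mice. In glucocorticoid response genes, 2 of 15 were higher, beside 1.93% of all genes. Tsc22d3, a glucocorticoid-induced leucine zipper protein, had 266 and 237 against 202 and 184 CPM (0.38 ± 0.17), and Nfkbia, the inhibitor of NF-kB, 510 and 513 against 401 and 414 CPM (0.33 ± 0.14). All mice were anaesthetized, but the 120 min ran from irradiation in treated mice and from the onset of anaesthesia in untreated mice. Time under anaesthesia and NTP therefore cannot be told apart.

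Immune response lists were no more uniform. Of 33 interferon response genes 1 was higher (Ifi213, 72.9 and 92.7 against 53.5 and 57.9 CPM) and 1 lower (Slfn5, 49.1 and 34.5 against 44.1 and 98.6 CPM). All genes had shares of 1.93% and 2.28%. Both treated mice lay above both untreated in 11 of the 33 and below in 4, beside 16.4% and 15.8% of all genes. The list median was -0.01. Oxidative stress genes had 2 of 23 higher and 1 lower, beside 1.93% and 2.28% of all genes. Ftl1, the ferritin light chain, had 577 and 524 against 414 and 474 CPM, Hmox2, a heme oxygenase, 60.2 and 41.0 against 33.1 and 27.9 CPM, and Sqstm1, an autophagy receptor, 88.7 and 88.4 against 131 and 111 CPM. Of 17 immediate early and handling stress genes, 1 was higher (beside 1.93% of all genes), Ppp1r15a with 68.1 and 71.1 against 52.0 and 38.6 CPM. Of 83 ribosomal protein genes, 0 were lower at an unadjusted p under 0.05, beside 2.28% of all genes. A positive difference was seen in 30 of the 83, beside 3129 of all 6276 genes, and the median was -0.02. Both treated mice lay below both untreated in 10 and above in 3, beside 15.8% and 16.4% of all genes.

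FoxO and PI3K-Akt genes gave 1 of 28 lower (beside 2.28% of all genes), the kinase subunit Pik3cd, with 177 and 233 against 250.3 and 274 CPM. The 7 receptor complex genes, 20 genes of proximal signalling, 21 cytokine receptor and STAT genes and 7 BCL2 family genes gave 0 at an unadjusted p under 0.05.

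Markers of regulatory and memory cells were tested in the same way. Of 3 regulatory T cell genes tested, 1 was higher at an unadjusted p under 0.05, beside 1.93% of all genes. This was Tnfrsf18, a receptor of regulatory T cells, with 36.4 and 34.5 against 18.9 and 15.003 CPM (1.04 ± 0.44). The other tested members, Ctla4 and Izumo1r, stood at 0.05 and 0.0018. Of 15 activated or memory genes 1 was lower, beside 2.28% of all genes, and 0 were higher. It was Crip1, with 367 and 343 against 413 and 476 CPM (-0.31 ± 0.15). That list had a median of 0.16, and 8 of the 15 genes were positive. Cd74, the MHC class II invariant chain of antigen-presenting cells, had 28.5 and 28.0 against 3.15 and 15.003 CPM (1.75 ± 0.57). B cells carry it too, and the share of cells with a B cell marker is given above. The 18 B cell genes listed, of which 2 passed the count filter and 0 were at 0 in all mice, summed to 274 and 216 CPM in treated and 157 and 278 CPM in untreated mice, so this sum overlapped between the groups. Cd79a, which defines B cells, had 13.9 and 8.29 CPM against 1.49 and 6.27 CPM. The part of B cell RNA in the difference of Cd74 was not tested. Markers of NK cells, platelets and neutrophils did not pass the count filter.

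Whether treatment acted differently in cluster 5 and in clusters 3, 7 and 8 was addressed by an interaction term over 7483 genes, with the mouse as a block. Here 0 genes passed the adjusted threshold (lowest adjusted p 0.729), and 371 (4.96%) had an unadjusted p under 0.05. Lcp1, an actin-bundling protein of leukocytes, had 139 and 161 CPM in treated and 229 and 204 CPM in untreated mice in cluster 5, and 235 and 244 against 204 and 188 CPM in the other CD4+ T cells. The 2 sets of cells moved in opposite directions, with a difference of -0.83 ± 0.20 on the log2 scale (edgeR adjusted p = 0.729). Dapl1 had 135 and 271 against 256 and 264 CPM in cluster 5 and 350 and 520 against 316 and 402 CPM in the others (-0.68 ± 0.18), with Maus3_2 alone low in cluster 5. The genes with the lowest p in the positive direction, Ttll5, Fam120c and 1190007I07Rik, were at or under 40.7 CPM in every sum of both sets. Treatment within the other CD4+ T cells also gave 0 genes past the threshold, with 354 of 7823 at an unadjusted p under 0.05.

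The features that set cluster 5 apart from cluster 3 differed little with treatment. The long-gene percentage averaged 14.2% in treated and 14.6% in untreated mice, a difference of -0.314 points, and the ribosomal percentage 28.8% and 29.4%, a difference of -0.632 points (exact permutation p = 0.333 and 0.667, of which 0.333 is the smallest that 2 against 2 mice can give). Both are small beside the gaps between clusters 5 and 3 in every mouse.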

How the data were processed

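UMI counts of single cells from the blood of 4 mice were analysed. The authors deposited a table of raw UMI counts (15093 genes, 5794 cells) and the cell type, the cluster and the percent of mitochondrial counts per cell. According to the study's methods, reads were aligned to mm10 with Cell Ranger (7.1.0 in the submitters' processing notes). SoupX took out ambient RNA, and Seurat (4.3.0) kept cells with 200 to 2500 genes and at most 10% mitochondrial counts. DoubletFinder took out doublets, and the cells were clustered after Seurat integration at a resolution of 0.8. No source used here states whether the deposited counts were corrected by SoupX. The UMIs per cell recomputed here equal the deposited ones in 5794 cells. No doublet caller was run again, and 0 columns of values were left unused.

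Counts were summed per mouse, the unit of every test, because cells of 1 mouse are not replicates. The study's test over cells (MAST) was not used. The quasi-likelihood test of edgeR (4.0.16, under R 4.3.3) was run with TMM scaling and its filter on low counts, with Benjamini-Hochberg adjustment over all genes tested. The interaction model held the mouse as a block, since both sums of a mouse come from 1 animal. Scripts were tested on simulated data. Gene positions came from GENCODE vM21 on GRCm38, which matched 14880 genes (98.6%). Sites were searched in 1 longest 3' UTR per gene.

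Named genes were the cell type markers, the 12 largest ratios per direction with the same sign in all mice, the 5 lowest p-values per direction of treatment and 3 of the interaction, up to 4 members per list with the highest CPM, and 5 target genes. A few genes that these rules name are not reported here. Other list members past a threshold were named after their values were seen. The cluster, the lists and the rules were chosen with earlier results of these data known. Alternatives were DESeq2 1.42.0, limma-voom (limma 3.58.1), RLE scaling, no filter, equal cells per mouse, thinning, other floors and pseudocounts, and leaving out each mouse. Promoter sequences were not used here, since too few ribosomal protein genes matched the promoter table.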

Additional observations from a re-analysis of the deposited data

How the results depend on the processing

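With 2 mice per group, treatment tests rest on few degrees of freedom. The count of genes past the adjusted threshold was 0 with DESeq2, limma-voom and RLE scaling, 2 without a filter on low counts (Gm10076 among them) and 1 with equal cells per mouse. Leaving out 1 mouse gave 0 (without Maus6) to 4 (without Maus3_2, with Rpl35, Gm10076 and Supt3 among them), with 2 without Maus2_2 and 3 without Maus4_2, and the lone mouse was then assumed to vary like the others. Without 1 mouse, Mif ranged from -0.37 to 0.19 (without Maus4_2), so its sign turned. The sign also turned for the interaction of Dapl1 against cluster 8 alone (0.18). The interaction gave 0 genes in all its alternatives. Without the mouse block, 0 genes passed and 275 had an unadjusted p under 0.05, so the pairing by animal changed no call.

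Of the profile against clusters 3, 7 and 8, the count of higher genes was 123 with a floor of 200 CPM and 20 after centring on the median, an alternative chosen after seeing the data. In cells thinned to 2000 UMIs 548 genes were higher, and 286 of the 400 were among them. There the log2 ratio of Gm4258 was 0.645 and that of H2-Q6 -0.305. The count of lower genes was 25 in cells thinned to 2000 UMIs, 4 with a floor of 200 CPM, 21 with a pseudocount of 1 CPM and 200 after centring. The rank correlation with gene span was 0.661 in thinned cells and 0.833 with the floor of 200 CPM. Without 1 mouse the higher genes numbered 382 to 498 and the lower ones 13 to 17. The difference in share kept its sign without each mouse, from -12.8 to -1.08 points. The cause of these moves was not tested, except that a higher floor leaves fewer genes.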

Other observations

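A few cells of cluster 5 lacked ribosomal protein transcripts almost wholly. In 4 of the 444 cells under 10% of the UMIs came from ribosomal protein genes, against 0 of the 1073 CD4+ T cells of clusters 3, 7 and 8. Outside the CD4+ T cells there were 34 such cells among the 964 B cells of cluster 2, 40 among the 340 plasmablasts of cluster 6 and 2 among the 593 CD8+ T cells of cluster 4, and 0 in the other clusters. Their ribosomal percentages were 0.328% (Maus3_2), 0.817% and 2.95% (Maus4_2) and 3.57% (Maus2_2), and the percentages from genes of 100 kb or more were 35.4%, 35.6%, 26.2% and 24.1%. The cell of Maus3_2 had 4567 UMIs and 1829 genes, and the other 3 had 1347, 1493 and 1990 UMIs. Mitochondrial percentages were 6.77%, 7.42%, 5.36% and 5.68%.

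Gm10076 and Rpl35 were highest in the treated mouse Maus6 in clusters 5, 3, 7 and 8, in B cells and in CD8+ T cells. Gm10076 had 282 CPM in cluster 5 of Maus6 and 56.4 to 100.1 CPM in the others. Rpl35, a ribosomal protein, had 2949 CPM there and 1472 to 2372 CPM in the others.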
